A study of Mus musculus with 136 samples.

Results

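The change in gene expression between the 5–6 and the 7–9 somite stage was measured in mouse embryos exposed to maternal diabetes. All 33 embryo libraries from diabetic dams were used, of 136 libraries in the series, with 17 embryos of 5 or 6 somite pairs set against 16 embryos of 7, 8 or 9 by the somite number in the sample labels. The dams were of the non-obese diabetic (NOD) strain, whose females become diabetic spontaneously, and they were mated to normoglycemic NOD males, so both stages share strain, condition and gestational day (E8.5). The labels describe 4 duplicates in the series as batch controls but give no batch for any library. A batch that coincides with stage could therefore not be told apart from it and was not tested. Blood glucose in the labels was 423 to 595 mg/dl, with 1 litter given only as above that range. The earlier group held 13 embryos with 5 and 4 with 6 somite pairs (6 female, 11 male, 9 litters), and the later group 4, 9 and 3 embryos with 7, 8 and 9 pairs (8 female, 8 male, 6 litters). Litter D24M15 gave 7 of the 16 later embryos, and 3 of 12 litters held embryos of both stages, 6 earlier and 11 later ones. Embryos of normal NOD dams, 17 and 16 in the same somite ranges, are used below only where the stage change is set beside theirs. Of these, 11 and 6 had 5 and 6 somite pairs, and 7, 4 and 5 had 7, 8 and 9 pairs.

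Somites are blocks of mesoderm that form in pairs from head to tail, so their number is a clock of early organ formation. Between 5 and 9 pairs the heart tube forms and begins to beat, primitive red blood cells made in the yolk sac enter the circulation, the neural folds close, neural crest cells leave the dorsal neural tube, and the tailbud goes on adding tissue at the rear. Primitive red cells carry their own globins: Hba-x encodes the zeta chain, and Hbb-bh1 and Hbb-y encode embryonic beta-like chains. Each library was made from RNA of a whole dissected embryo, so fewer cells of a type and less RNA per cell cannot be told apart.

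The sequences before the starts of 4 genes from both groups with the clearest rise, red cell globins and heart muscle, are shown here because members of each group moved together. These genes were chosen with their values known and are not a random sample of raised genes. Each is the 250 bases before the gene's start in RefSeq (GRCm38.p6), 5′ to 3′ on the gene's strand, with matches to AGATAA or TGATAA on either strand in capitals, the letters bound by GATA factors, and in the globin genes also matches to CCACCC on either strand, a sequence bound by Krüppel-like factors.

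Hba-x (chr11:32276350-32276599, plus strand): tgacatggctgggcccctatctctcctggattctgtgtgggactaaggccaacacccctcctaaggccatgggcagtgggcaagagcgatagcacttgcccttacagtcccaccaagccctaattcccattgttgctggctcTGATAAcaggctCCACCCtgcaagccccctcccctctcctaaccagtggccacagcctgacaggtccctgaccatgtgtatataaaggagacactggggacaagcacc
Hbb-y (chr7:103853208-103853457, minus strand): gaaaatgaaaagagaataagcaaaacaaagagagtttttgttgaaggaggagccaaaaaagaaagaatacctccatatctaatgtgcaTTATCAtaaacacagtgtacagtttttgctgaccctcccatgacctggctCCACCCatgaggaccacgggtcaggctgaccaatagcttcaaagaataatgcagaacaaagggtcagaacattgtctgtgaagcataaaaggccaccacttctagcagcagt
Nppa (chr4:148000472-148000721, plus strand): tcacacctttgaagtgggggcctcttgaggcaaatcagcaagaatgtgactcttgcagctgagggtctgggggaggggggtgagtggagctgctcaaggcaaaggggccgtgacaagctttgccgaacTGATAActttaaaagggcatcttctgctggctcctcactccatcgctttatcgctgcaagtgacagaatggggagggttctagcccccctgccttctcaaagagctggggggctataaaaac
Myl7 (chr11:5898783-5899032, minus strand): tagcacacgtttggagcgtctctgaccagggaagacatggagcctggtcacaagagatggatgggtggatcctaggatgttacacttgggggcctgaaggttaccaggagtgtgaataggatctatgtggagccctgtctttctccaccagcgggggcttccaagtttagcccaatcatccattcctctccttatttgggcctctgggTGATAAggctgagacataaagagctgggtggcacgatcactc

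All 4 windows shown held 1 GATA match, at 108 (Hba-x), 162 (Hbb-y), 122 (Nppa) and 42 (Myl7) bases before the start, and 16.6% of 32851 windows of the same length in the RefSeq table held at least 1. Both globin windows held 1 CCACCC match, that of Myl7 held 2, not in capitals, and that of Nppa none, beside 28.1% of all windows with at least 1. The window of Cyp26b1, also searched and not shown, held no match to either. These matches describe letters in the windows and were not tested for binding. Hbb-bh1 has no entry used here.

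Depth was 1862662 to 3843085 counts per library at 5–6 somite pairs (median 2642460) and 1330731 to 3093423 at 7–9 (median 2146900), a mean difference of 17.7% fewer counts at the later stage (two-sided permutation test of log10 totals, p = 0.0206). Library D24M15J (8 somite pairs) had 9.87 normalized counts of T against 65.5 to 174 in the other 15 later libraries, and 0 of Cdx4 against 80.8 to 242. Its Pax6 (304) and Otx2 (439.8) lay above theirs (177 and 341 at most). Library D24M15G, labelled male, had 212 normalized counts of Xist, the RNA that coats the inactive X chromosome, where the other 18 males had at most 46.1 and females at least 1778. Counts for a list are given below without D24M15J where they move by over 1.5 times or to or from 0.

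The stages also differed in base composition. A library's deviations from the mean of all embryo libraries were related across genes to the GC content of the last 500 bases of each gene's longest transcript, with Spearman's rho of -0.41 to 0.23 (median -0.083) at 5–6 and -0.077 to 0.42 (median 0.23) at 7–9 somite pairs. Across 10699 genes, rho between the stage log2 fold change and GC content was 0.44, and with transcript length -0.26. In normal embryos the same values were -0.00195 and 0.0955. Genes share libraries and are not independent, so no p is given. All values were also computed after removal of these trends in each library, with litter as a block, and without each litter. These outcomes are given at the end of a paragraph for genes whose call they ended or whose log2 fold change they moved by over 1.5 times while it passed.

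**Figure D1:**
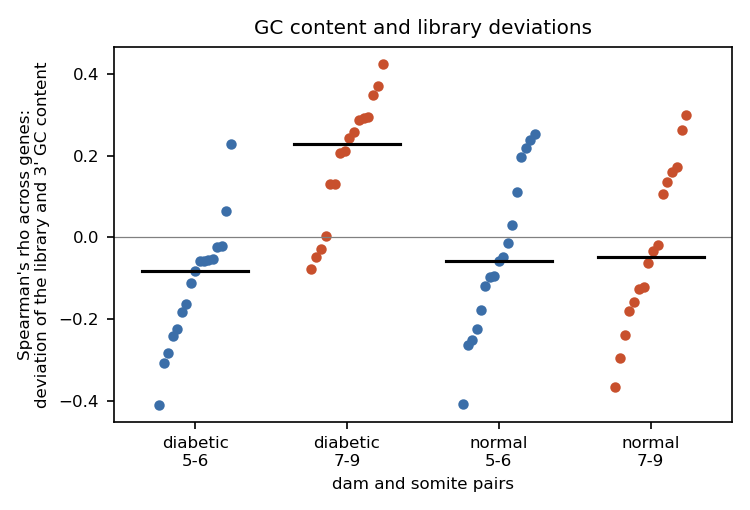
Relation of each embryo library's deviations to GC content, as Spearman's rho across genes (y axis, no unit), by maternal condition and somite pairs (x axis), with points for libraries and bars for medians. In diabetic embryos the medians are -0.083 and 0.23, in normal embryos -0.059 and -0.049.

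Of 10711 genes tested, 3124 differed between the stages, 29.2% of all, at an adjusted p under 0.05 in edgeR's quasi-likelihood test with Benjamini-Hochberg adjustment, which stands behind every adjusted p below unless another is named. Expression was higher at 7–9 somite pairs for 1622 (15.1%) and lower for 1502 (14%). Counts of list members below are to be read beside these shares, and a count near them shows nothing particular to its list. A gene is called raised or lowered below only where it passed this test, and a log2 fold change is the later over the earlier stage, ± its standard error. With the GC and length trends removed, 2556 genes passed (23.9%), 1794 of them shared in direction with the 3124, and 41 of the latter turned sign. With litter as a fixed block, which leaves the contrast to the 3 litters with both stages, 1719 passed (16%), and 15 of the 3124 turned sign. With the block and the trends removed together 1023 passed, 713 of them shared in direction with the 3124, of which 209 turned sign.

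**Figure D2:**
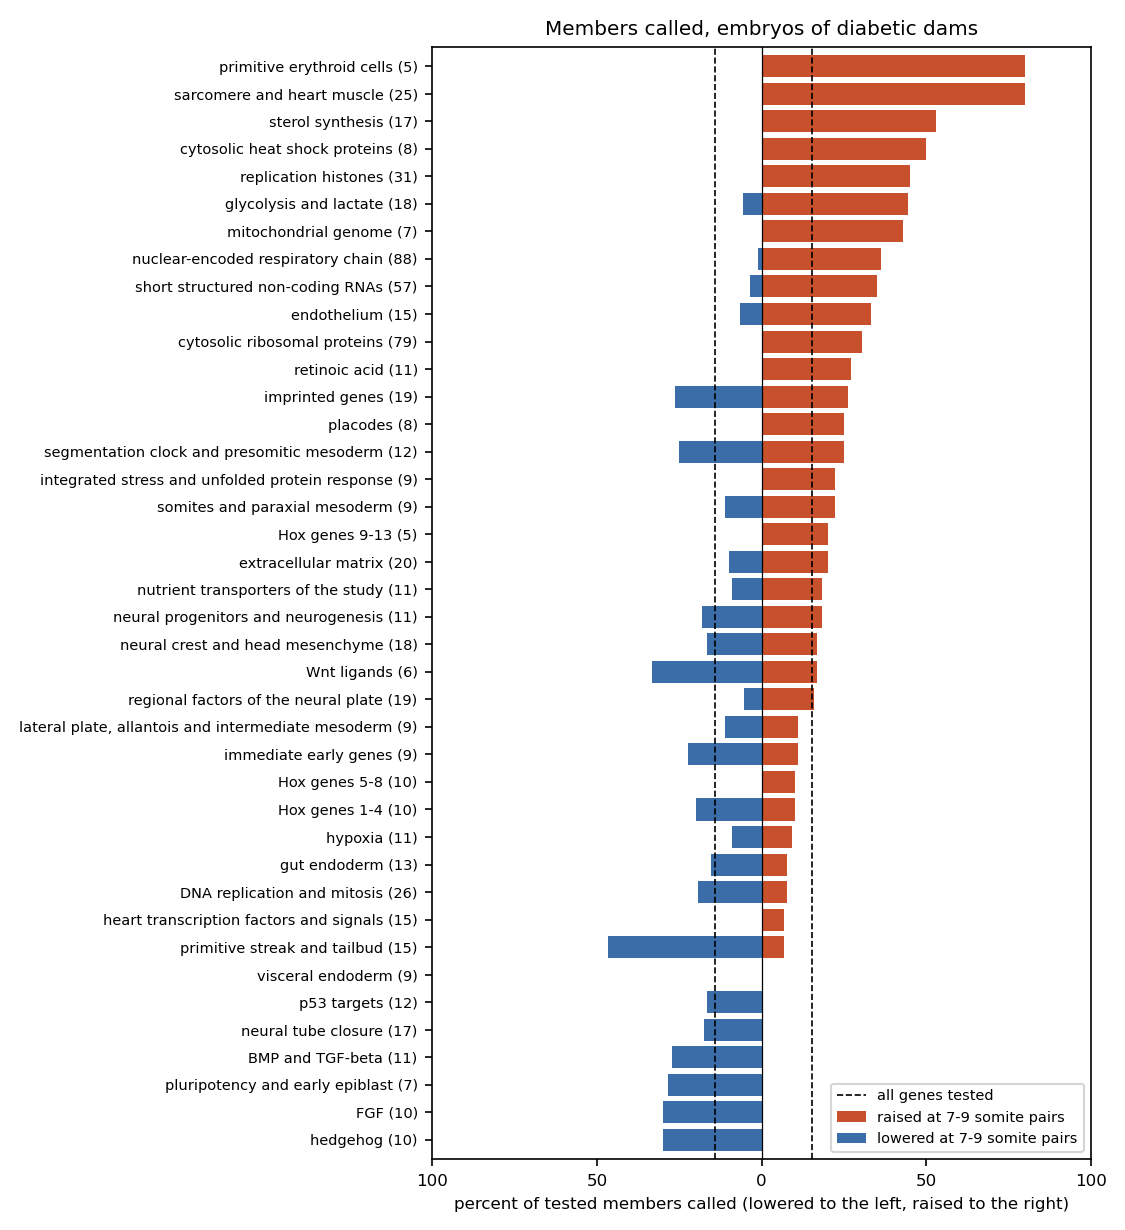
Percent of the tested members of each gene list that were raised (red, to the right) or lowered (blue, to the left) at 7–9 somite pairs in embryos of diabetic dams, with the number tested in brackets. Dashed lines mark 15.1% raised and 14% lowered over all genes tested, and lists of under 5 tested members are left out.

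Globins of primitive red cells had the largest rises among the tested genes named. Values of Hba-x were 0 to 38.8 (median 6.95) at 5–6 somite pairs and 14.7 to 1745 (median 80.7) at 7–9, and the log2 change was 5.11 ± 0.67, adjusted p = 1.89e-06. The later values were spread widely, 11 of 16 lay above every earlier value, and medians at 5, 6, 7, 8 and 9 somite pairs were 6.51, 7.28, 57, 91.6 and 83.1. The largest step between neighbouring medians lay between 6 and 7 pairs. Values of Hbb-y were 0 to 39.9 (median 6.26) at 5–6 somite pairs and 6.29 to 1494 (median 61.2) at 7–9 (5.04 ± 0.69, adjusted p = 3.58e-06). Those of Hbb-bh1 were 0.747 to 86.5 (median 20.7) at 5–6 somite pairs and 15.7 to 1769 (median 110.1) at 7–9 (3.89 ± 0.59, adjusted p = 1.24e-05). The stages overlapped for all 3 globins, with 11 of 16 later libraries above every earlier one for Hbb-y and 11 for Hbb-bh1.

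Summed over the 3 globins, libraries D28M36D (5008), D28M23B (3734) and D24M15G (2366) stood far above the other later libraries, of which the highest was 723. Without them the log2 fold changes were 3.04 for Hba-x, 2.92 for Hbb-y and 2.16 for Hbb-bh1, with adjusted p = 2.79e-06, 1.62e-05 and 0.000239. The summed adult globins (Hba-a1, Hba-a2, Hbb-bs and Hbb-bt), which circulating maternal blood would also carry, were 0.76 to 709 at the earlier stage, the highest in D28M36B, and 7.38 to 317 at the later, with 305, 175 and 146 in those 3 libraries. Their part in the globin rise was not tested. Of 13 genes in the red cell list only 5 had counts enough for the test, and 4 rose. Among them Tal1, a transcription factor of blood and endothelial precursors, rose by 0.48 ± 0.14 (adjusted p = 0.00949), while Lmo2, its partner, had -0.18 (adjusted p = 0.258). Gata1 and Klf1 were below the count filter. With litter as a block the globins differed too, at 5.15, 4.81 and 3.62 for Hba-x, Hbb-y and Hbb-bh1. D28M36D, D28M23B and D24M15G come from the 3 litters with both stages, on which this fit rests, and it was not run without them. In D24M15, Hba-x overlapped, with 38.8 and 3.71 in the earlier and 19.7 to 804 in the later embryos. In the fit with litter as a block all 9 tested markers of visceral endoderm, the yolk sac layer beside which these cells arise, had positive log2 fold changes (median 1.06) and none passed. Their part in the globin values was not tested. Tal1 (0.45 without D24M15) did not pass when such a litter was left out.

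**Figure D3:**
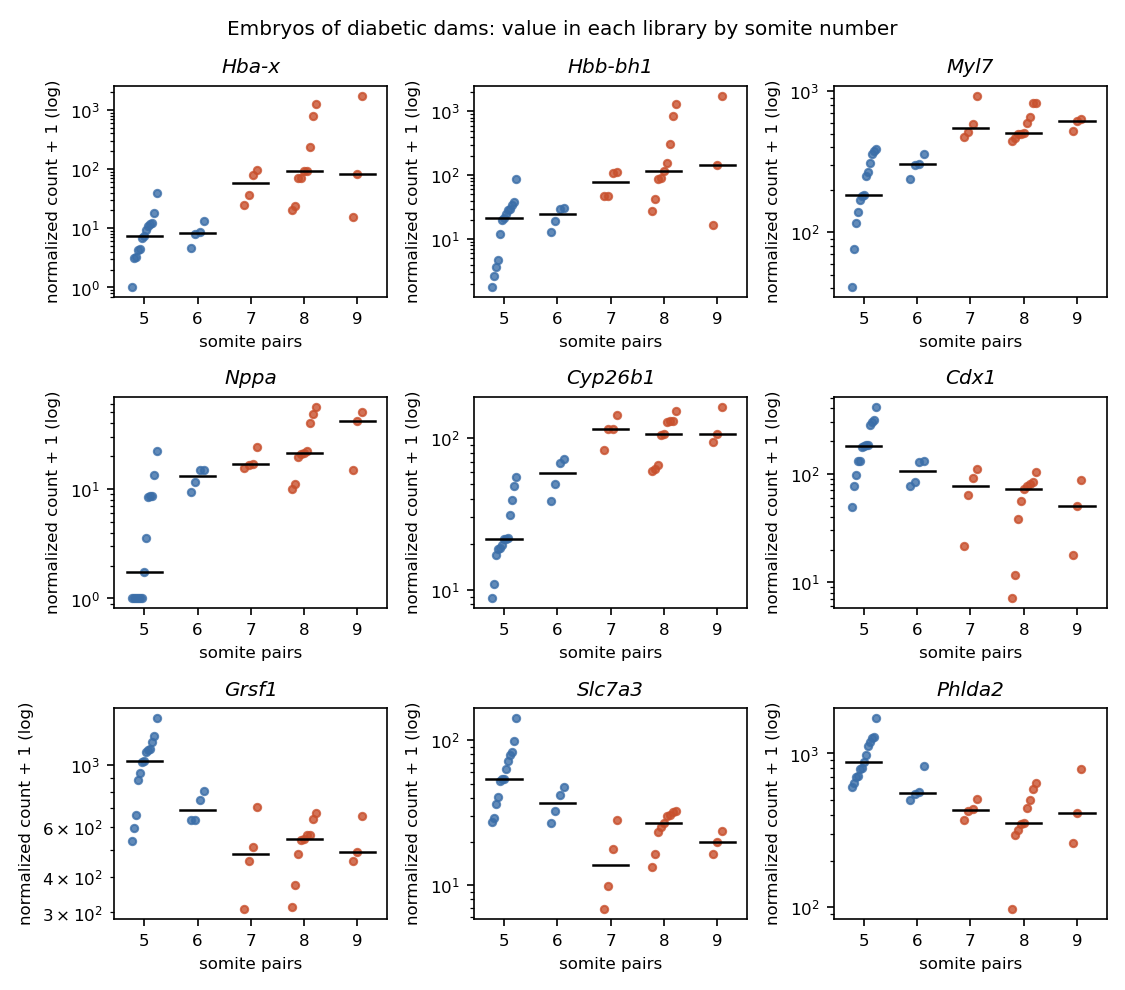
Normalized count plus 1 (log axis) of 9 genes in each of 33 embryo libraries of diabetic dams by somite pairs, blue for 5–6 and red for 7–9, with black bars for medians. Hba-x and Hbb-bh1 step up at 7 pairs, Myl7, Nppa and Cyp26b1 are already higher at 6 than at 5 pairs, and Cdx1, Grsf1, Slc7a3 and Phlda2 are lower at 6 than at 5 pairs.

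Heart muscle genes rose as a group. Of 25 tested genes of the sarcomere and of heart muscle, 20 were raised, 0 were lowered and 5 did not pass, with a median log2 fold change of 0.84 beside -0.0041 over all genes tested. Myl7, the atrial regulatory light chain of myosin, had values of 39.7 to 391 (median 252) at 5–6 somite pairs and 441 to 932 (median 555) at 7–9. All 16 later libraries lay above all 17 earlier ones, and the log2 fold change was 1.34 ± 0.20, adjusted p = 8.77e-06. Its medians at 5 to 9 somite pairs were 183, 302, 552, 506 and 617. Nppa, which encodes atrial natriuretic peptide, was at 0 to 21.1 (median 7.36) at 5–6 somite pairs and 9.09 to 55.5 (median 19.9) at 7–9 (1.97 ± 0.39, adjusted p = 0.000347). Its medians from 5 to 9 pairs were 0.747, 12.2, 15.9, 20.1 and 40.8. Myl2, the ventricular regulatory light chain, was at 2.98 to 49.9 (median 24.9) at 5–6 somite pairs and 33.7 to 103 (median 51.6) at 7–9 (1.54 ± 0.28, adjusted p = 0.00016). Tnni3, the cardiac inhibitory troponin (1.37 ± 0.21, adjusted p = 1.68e-05), and Myl4, an atrial essential light chain (0.99 ± 0.19, adjusted p = 0.000192), rose as well, and 12 and 8 later libraries lay above every earlier one.

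Further raised members included Actn2 (1.13), which anchors actin at the Z disc, Smpx (1.07), Mybpc3 (0.97), Myh7 (0.92) and Myh6 (0.73), the cardiac myosin heavy chains, Actc1 (0.86) and Tnnt2 (0.84). Ryr2, Ldb3, Myom1, Tpm1 and Ttn did not pass, with log2 fold changes from -0.29 (Ttn) to 0.38 (Myom1). With litter as a block 10 members rose, and with the GC and length trends removed 18, with none lowered in either fit. With both together 5 rose. Among the transcription factors and signals that specify the heart, 1 passed, Nkx2-5, a homeodomain factor of heart precursors, of 15 tested, at 0.49 ± 0.16, adjusted p = 0.0209. Mef2c was at 59.2 to 259 (median 158) at 5–6 somite pairs and 117 to 234 (median 157) at 7–9 (0.036 ± 0.15, adjusted p = 0.878), Gata4 at 0.12 (adjusted p = 0.539), and Isl1 at 0.10 (adjusted p = 0.488). Smpx (0.89), Mybpc3 (0.99), Myh7 (0.98), Myh6 (1.03), Actc1 (0.89) and Nkx2-5 (0.63) did not pass with litter as a block (adjusted p = 0.0564 to 0.121). Myh6 (0.50) and Nkx2-5 (0.11) did not pass with the trends removed (adjusted p = 0.106 to 0.651). Myh6 (0.68) did not pass without D24M15J (adjusted p = 0.052). Smpx (0.86 without D24M15), Myh6 (0.65 to 0.78 without each of 3 litters in turn) and Nkx2-5 (0.49 without D24M15 and 0.38 without D28M23) did not pass when such a litter was left out.

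Myl7 is given here within the litters that held both stages. In D24M15, 2 earlier embryos had 179.6 and 236 normalized counts of Myl7, and 7 later littermates 441 to 826. In D28M23, 3 earlier embryos had 75.6 to 302 and 2 later ones 516 and 831. In D28M36 the single earlier embryo had 183 and the later ones 637 and 932. That the stages did not overlap in any of the 3 litters follows from the lack of overlap over all libraries and adds no further evidence.

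**Figure D4:**
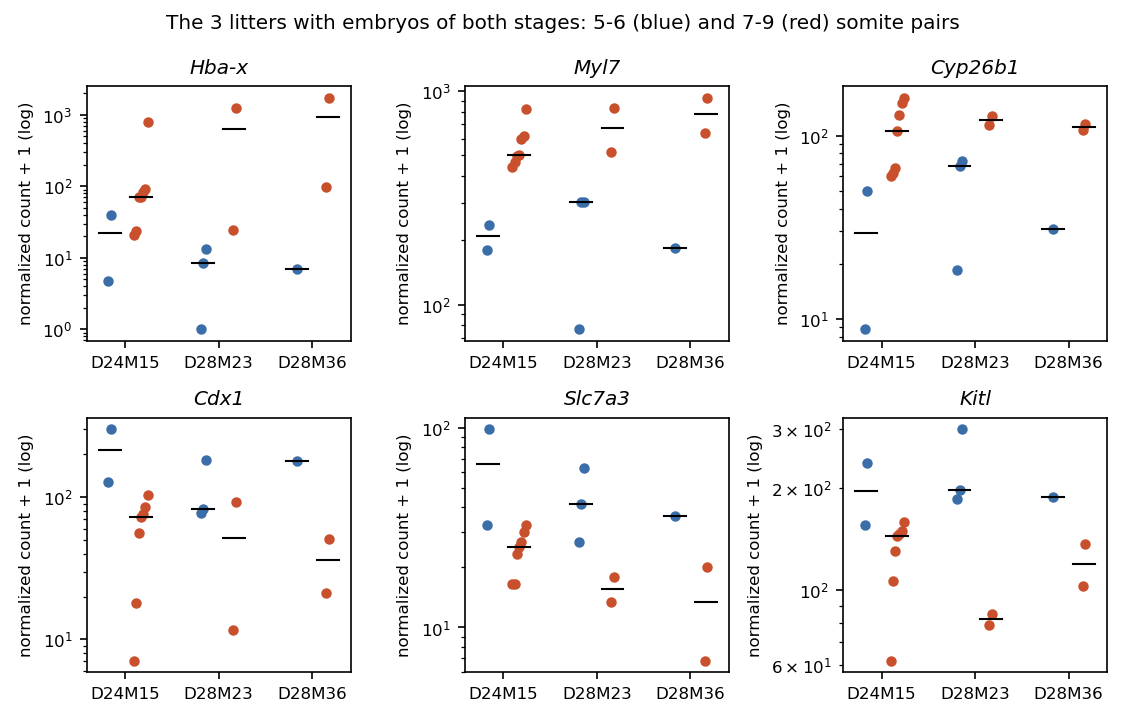
Normalized count plus 1 (log axis) of 6 genes in the 3 litters that held embryos of both stages, with a point per library, blue for 5–6 and red for 7–9 somite pairs, and bars for medians. Myl7 and Cyp26b1 are higher and Slc7a3 lower at the later stage in every embryo of each litter, Kitl is lower with an overlap in D24M15, and Hba-x overlaps in D24M15.

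Endothelial genes mark vessels. Of 15 tested, 5 were raised, 1 was lowered and the median was 0.22. Emcn, endomucin, was at 1.11 to 22.7 (median 13.9) at 5–6 somite pairs and 11 to 39 (median 21.1) at 7–9 and rose (0.76 ± 0.21, adjusted p = 0.00624). Esam (0.45), Ramp2 (0.33), Plvap (0.46) and Kdr (0.35), the main receptor for VEGF, were also raised, and Sox17 was lowered (-0.63 ± 0.22, adjusted p = 0.0283). Pecam1, Cdh5, Tek and Flt1 lay between -0.061 (Flt1) and 0.22 (Cdh5) without passing. Endothelial genes numbered 2 raised and 1 lowered with the trends removed and 1 and 1 with litter as a block. Esam (0.37), Ramp2 (0.37), Plvap (0.45) and Kdr (0.37) did not pass with litter as a block (adjusted p = 0.13 to 0.213). Esam (0.33), Ramp2 (0.07) and Plvap (0.21) did not pass with the trends removed (adjusted p = 0.0559 to 0.68). Emcn (1.32) passed at another size with litter as a block. Kdr (0.53) passed at another size with the trends removed. Plvap (0.43) did not pass without D24M15J (adjusted p = 0.0698). Esam (0.40 without D24M15), Ramp2 (0.39 without D24M15 and 0.28 without D28M36), Plvap (0.39 to 0.50 without each of 8 litters in turn), Kdr (0.28 to 0.42 without each of 6 litters in turn) and Sox17 (-0.57 to -0.53 without each of 4 litters in turn) did not pass when such a litter was left out.

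The primitive streak and tailbud make up the growth zone at the rear. Of 15 tested, 7 were lowered and 1 was raised, with a median of -0.55. Cdx1, a caudal homeobox factor, was at 48 to 414 (median 130.1) at 5–6 somite pairs and 6.08 to 108 (median 67) at 7–9 (-1.49 ± 0.29, adjusted p = 0.000269), with 5 later libraries below every earlier one. Its medians at 5 to 9 somite pairs were 179, 104, 76.7, 71.5 and 49.6, so the value at 6 pairs lay between those of 5 and 7. Grsf1, an RNA-binding protein, was at 537 to 1465 (median 934) at 5–6 somite pairs and 306 to 705 (median 526) at 7–9 (-0.83 ± 0.13, adjusted p = 1.68e-05). Sp5, a target of Wnt signalling, fell (-0.67 ± 0.13, adjusted p = 0.000267), as did Cyp26a1, which degrades retinoic acid in the tailbud (-0.67 ± 0.14, adjusted p = 0.000612), Nkx1-2 (-0.93), Cdx4 (-0.73) and the ligand Wnt3a (-0.65). T (Brachyury), the defining factor of the streak, did not pass (-0.14 ± 0.20, adjusted p = 0.61), and neither did Tbx6 (-0.25) or Fgf8 (-0.55). Gdf11, a ligand that acts on trunk to tail transition, was raised (0.50 ± 0.16, adjusted p = 0.0168). Without library D24M15J, 7 members were lowered and 1 was raised, and 7 were lowered with the trends removed and 6 with litter as a block. Cdx4 (-0.65) and Wnt3a (-0.62) did not pass with litter as a block (adjusted p = 0.068 to 0.257). Cdx4 (-0.68) did not pass with the trends removed (adjusted p = 0.0596). Cdx4 (-0.72 to -0.59 without each of 5 litters in turn), Wnt3a (-0.55 without D24M15) and Gdf11 (0.54 without D24M15) did not pass when such a litter was left out.

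Hox genes set position along the body axis. Of 10 tested genes of paralog groups 1 to 4, 1 was raised and 2 were lowered, of 10 of groups 5 to 8 1 was raised, and of 5 of groups 9 to 13 1 was raised. Hoxc9 was at 12.9 to 91.7 (median 44.6) at 5–6 somite pairs and 1.52 to 184 (median 102) at 7–9 (1.11 ± 0.27, adjusted p = 0.00236), and its lowest later value was that of D24M15J. Without that library Hoxc9 was at 1.21 ± 0.21, adjusted p = 8.49e-05, 3 genes of groups 9 to 13 and 3 of groups 5 to 8 were raised, with medians of 0.46 and 0.12. These were Hoxa9 (0.65) and Hoxd9 (0.46) beside Hoxc9, and Hoxc5 (0.56), Hoxc6 (0.69) and Hoxa7 (0.53). D24M15J was left out after its low values of such genes had been seen. Larger rises and a smaller p without it follow in part from that choice and are not separate evidence. Among the lower groups, Hoxb1 was raised (0.43 ± 0.14, adjusted p = 0.0193) and Hoxb3 was lowered (-0.57 ± 0.18, adjusted p = 0.0137), and neither passed with the trends removed. In D24M15J itself, the group 2 members lay within the range of the other later embryos, Hoxa2 at 31.9 against 12.7 to 39.4 and Hoxb2 at 58.5 against 54.5 to 118. All other Hox genes shown were below that range, as with Hoxc6 at 3.8 against 168 to 395 and Hoxb9 at 1.52 against 89.5 to 219.9. Myl7 at 826 and Meox1 at 69.1 normalized counts in it were within the range of the others, while Tbx6 at 0 against 11.3 to 49.4 and Hes7 at 1.52 against 36.6 to 117 were below it. Hoxc9 (0.79), Hoxb1 (0.24) and Hoxb3 (-0.64) did not pass with litter as a block (adjusted p = 0.125 to 0.387). Hoxc5 (0.34), Hoxb1 (0.25) and Hoxb3 (-0.36) did not pass with the trends removed (adjusted p = 0.0959 to 0.216). Hoxc5 (0.84) passed at another size with litter as a block. Hoxc5 (0.41 to 0.51 without each of 8 litters in turn), Hoxb1 (0.36 without D28M36) and Hoxb3 (-0.41 without D28M23) did not pass when such a litter was left out.

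**Figure D5:**
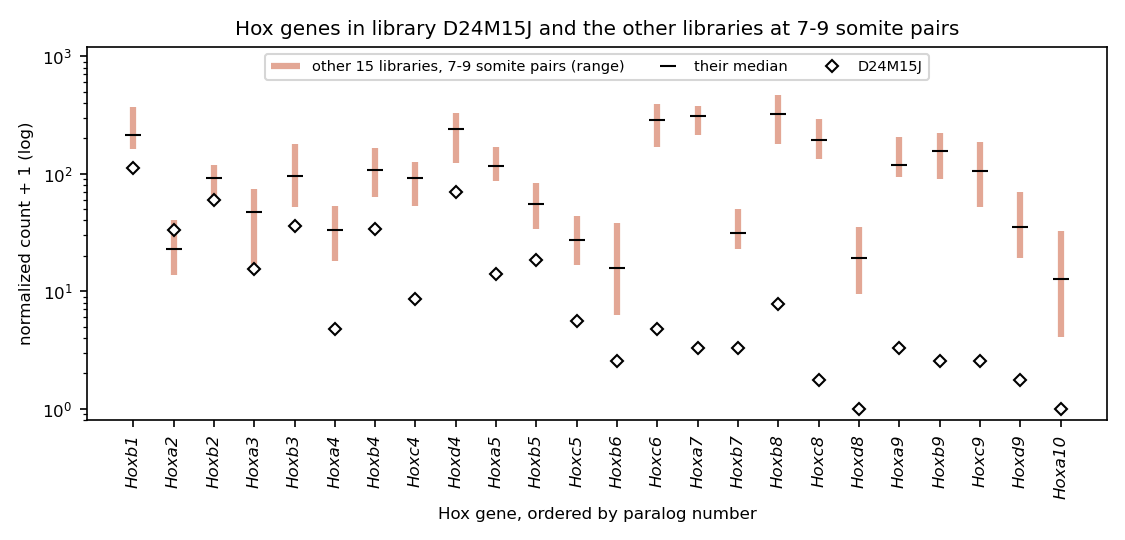
Normalized count plus 1 (log axis) of Hox genes, ordered by paralog number on the x axis, in library D24M15J (diamonds) and in the other 15 libraries of 7–9 somite pairs from diabetic dams (bars for the range, ticks for the median). The diamonds lie within the bars for paralog group 2 and below them for all other genes shown.

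Presomitic mesoderm, where the segmentation clock sets the pace of somite formation, gave 3 raised and 3 lowered genes of 12 tested. Dkk1, a secreted Wnt inhibitor, was at 23.9 to 76.5 (median 42.8) at 5–6 somite pairs and 8.86 to 37.9 (median 28.4) at 7–9 and fell (-0.59 ± 0.15, adjusted p = 0.00364). Lfng, which modifies Notch (0.48 ± 0.15, adjusted p = 0.0142), and Nkd1 (0.30 ± 0.093, adjusted p = 0.0133) rose and Epha4 fell (-0.27 ± 0.085, adjusted p = 0.0133). Hes7, the clock's core repressor, was at 0.014 (adjusted p = 0.968) and Dll1 at -0.71 (adjusted p = 0.0944). Presomitic genes numbered 1 raised and 2 lowered with the trends removed and 0 and 3 with litter as a block. Of 9 tested genes of formed somites 2 rose and 1 fell. Tcf15, needed for their epithelial form, was raised (0.89 ± 0.28, adjusted p = 0.0143), from a median of 54.9 to 111. Tbx18 rose (0.57 ± 0.20, adjusted p = 0.0299) and Pdgfra, a growth factor receptor of mesoderm, fell (-0.53 ± 0.12, adjusted p = 0.00178). Pax3 (-0.11, adjusted p = 0.488) and Meox1 (0.48, adjusted p = 0.0521) did not pass. Somite genes numbered 1 raised and 1 lowered with the trends removed and 0 and 2 with litter as a block. Lfng (0.58), Nkd1 (0.15), Epha4 (-0.16), Tcf15 (0.41) and Tbx18 (0.24) did not pass with litter as a block (adjusted p = 0.0892 to 0.624). Lfng (0.35), Nkd1 (0.17), Epha4 (-0.027) and Tcf15 (0.50) did not pass with the trends removed (adjusted p = 0.0645 to 0.829). Pdgfra (-0.33) passed at another size with the trends removed. Lfng (0.40 without D28M53), Nkd1 (0.21 without D24M15 and 0.28 without D28M53), Epha4 (-0.27 without D24M15 and -0.23 without D28M53) and Tbx18 (0.53 without D28M36 and 0.50 without D28M37) did not pass when such a litter was left out.

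In the neural plate, 3 of 19 tested regional factors rose and 1 fell, beside 15.1% and 14% of all genes tested. Pax6, a factor of forebrain, eye and hindbrain, was at 46.7 to 141 (median 86.6) at 5–6 somite pairs and 100.2 to 304 (median 143) at 7–9 (0.77 ± 0.14, adjusted p = 0.000183). Its highest value was that of D24M15J, and without that library the highest was 177 and the log2 fold change 0.66 ± 0.13, adjusted p = 0.00033. Irx3 (0.55 ± 0.11, adjusted p = 0.000541) and Emx2 (0.56 ± 0.20, adjusted p = 0.0294), a factor of the dorsal forebrain, rose, and Gbx2, which places the midbrain-hindbrain boundary, fell (-0.77 ± 0.21, adjusted p = 0.00676). Six3 and Rax, factors of the anterior forebrain and eye field, were at 0.41 and 0.65 and did not pass. Zic1, a zinc finger factor of the dorsal neural tube, was at 1.86 to 51.6 (median 10.9) at 5–6 somite pairs and 22.4 to 94 (median 47.9) at 7–9 (1.64 ± 0.29, adjusted p = 7.36e-05), among the 15 largest rises of called genes that have a symbol, average 20 or more normalized counts in a stage and keep their direction with litter as a block. Among neural progenitor genes Pou3f2 rose (1.01 ± 0.27, adjusted p = 0.00442) and Pou3f1, another member of the POU family, fell (-0.81 ± 0.20, adjusted p = 0.00281). Hes5, a Notch target that keeps progenitors dividing, rose (0.65 ± 0.19, adjusted p = 0.00953) and Sox2 fell (-0.25 ± 0.10, adjusted p = 0.0497). Of 11 tested, 2 rose and 2 fell. Regional factors numbered 1 raised and 1 lowered with litter as a block. Neural progenitor genes numbered 1 raised and 2 lowered with the trends removed, 0 and 0 with litter as a block and 2 and 4 without D24M15J. Irx3 (0.50), Emx2 (0.33), Pou3f2 (1.09), Pou3f1 (-0.61), Hes5 (0.63) and Sox2 (-0.24) did not pass with litter as a block (adjusted p = 0.0616 to 0.472). Hes5 (0.37) and Sox2 (-0.084) did not pass with the trends removed (adjusted p = 0.146 to 0.613). Gbx2 (-1.26) passed at another size with litter as a block. Emx2 (0.50) did not pass without D24M15J (adjusted p = 0.0563). Emx2 (0.49 to 0.56 without each of 4 litters in turn), Pou3f2 (0.81 without D24M15), Hes5 (0.55 without D24M15 and 0.53 without D28M53) and Sox2 (-0.32 to -0.21 without each of 10 litters in turn) did not pass when such a litter was left out.

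Neural crest factors moved in both directions, in shares near those of all genes tested (15.1% raised and 14% lowered). Sox10, which marks crest cells on the move, was at 6.08 to 59.1 (median 22.8) at 5–6 somite pairs and 39.1 to 133 (median 56.5) at 7–9 (1.22 ± 0.24, adjusted p = 0.000331), above the highest earlier value in 5 later libraries. Foxd3, which marks the crest before it leaves the neural tube, was at 69.9 to 228 (median 124) at 5–6 somite pairs and 11.6 to 118 (median 62.3) at 7–9 (-0.95 ± 0.19, adjusted p = 0.000472), and 10 later libraries lay below every earlier one. Tfap2b (1.06 ± 0.23, adjusted p = 0.000705) and Nr2f1 (0.88 ± 0.19, adjusted p = 0.000723) rose, and Ednra (-0.46) and Msx1 (-0.41) fell. Of 18 tested, 3 rose and 3 fell, while Sox9 (-0.11), Tfap2a (0.12) and Twist1 (-0.43) did not pass. Neural crest genes numbered 3 raised and 1 lowered without D24M15J. Of 8 placode genes 2 rose, among them Gata3 (0.41 ± 0.14, adjusted p = 0.0204). Of 13 gut endoderm genes, 2 fell: Trh, thyrotropin-releasing hormone, at 17.7 to 199.8 (median 51) at 5–6 somite pairs and 9.09 to 51.1 (median 20.2) at 7–9 (-1.64 ± 0.28, adjusted p = 5.83e-05), and Epcam (-0.52 ± 0.12, adjusted p = 0.00185), while Cdh1, E-cadherin, rose (0.42 ± 0.11, adjusted p = 0.00376). Of 9 tested genes of lateral and intermediate mesoderm 1 rose and 1 fell. Among them Bmp4 rose (0.61 ± 0.13, adjusted p = 0.000827), and Foxf1 fell (-0.50 ± 0.14, adjusted p = 0.00599). Placode genes numbered 0 raised and 0 lowered with litter as a block and 1 and 0 without D24M15J. Lateral mesoderm genes numbered 1 raised and 2 lowered with the trends removed, 0 and 0 with litter as a block and 2 and 2 without D24M15J. Nr2f1 (0.72), Ednra (-0.61), Gata3 (0.30), Bmp4 (0.25) and Foxf1 (-0.53) did not pass with litter as a block (adjusted p = 0.0799 to 0.379). Ednra (-0.42) did not pass with the trends removed (adjusted p = 0.0698). Msx1 (-0.70) passed at another size with litter as a block. Ednra (-0.43) and Msx1 (-0.39) did not pass without D24M15J (adjusted p = 0.0556 to 0.0689). Ednra (-0.58 to -0.35 without each of 9 litters in turn), Msx1 (-0.40 to -0.35 without each of 6 litters in turn) and Foxf1 (-0.34 without D24M15) did not pass when such a litter was left out.

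Genes of the earlier epiblast gave 2 falls and no rise of 7 tested. Slc7a3, a cationic amino acid transporter, was at 25.8 to 142 (median 51) at 5–6 somite pairs and 5.81 to 31.5 (median 22.5) at 7–9 (-1.39 ± 0.22, adjusted p = 2.11e-05), and 11 of 16 later libraries lay below every earlier one. Dnmt3b, a de novo DNA methyltransferase, fell (-0.45 ± 0.10, adjusted p = 0.000771), and 5 further tested members did not pass, among them Lin28a (-0.0062) and Sall4 (-0.24). Pou5f1 and Nanog had too few counts to be tested. Of 17 tested genes listed for a part in neural tube closure, 3 fell, near the 14% of all genes tested that fell. These were Lrp2 (-0.54 ± 0.12, adjusted p = 0.00118), an endocytic receptor, Cited2 (-0.60 ± 0.17, adjusted p = 0.00844) and Grhl2 (-0.44 ± 0.15, adjusted p = 0.0252). Vangl2, Celsr1 and Scrib, of planar cell polarity, were at 0.072, 0.0078 and 0.076 and did not pass. Neural tube closure genes numbered 2 raised and 1 lowered with the trends removed. None of them passed with the trends removed and litter as a block together. Grhl2 (-0.48) did not pass with litter as a block (adjusted p = 0.182). Lrp2 (-0.39) and Grhl2 (-0.25) did not pass with the trends removed (adjusted p = 0.0875 to 0.185). Grhl2 (-0.42 to -0.38 without each of 3 litters in turn) did not pass when such a litter was left out.

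In the retinoic acid pathway, 3 of 11 tested genes rose and 0 fell. Cyp26b1, which degrades retinoic acid in the hindbrain, was at 7.76 to 71.4 (median 20.9) at 5–6 somite pairs and 59.6 to 161 (median 109.6) at 7–9 (1.73 ± 0.22, adjusted p = 1.45e-06), with 13 of 16 later libraries above every earlier one and medians at 5 to 9 somite pairs of 20.5, 58.4, 114, 105 and 106. Crabp1, a cytosolic binding protein, rose (0.77 ± 0.14, adjusted p = 0.000116), and Stra6, the retinol uptake receptor, rose (0.53 ± 0.19, adjusted p = 0.0318). The synthetic enzymes Aldh1a2 (-0.11) and Rdh10 (-0.13) did not pass. Of 10 tested hedgehog genes 3 fell, among them the receptor Ptch1 (-0.41 ± 0.12, adjusted p = 0.0128), which is also a target of the pathway, and the coreceptor Gas1 (-0.31). Gli1, another target, was at 0.087 (adjusted p = 0.738). Retinoic acid genes numbered 2 raised and 2 lowered with the trends removed and 2 and 1 with litter as a block. Hedgehog genes numbered 0 raised and 1 lowered with the trends removed and 0 and 1 with litter as a block. Stra6 (0.55) and Gas1 (-0.35) did not pass with litter as a block (adjusted p = 0.0911 to 0.178). Stra6 (0.32), Ptch1 (-0.15) and Gas1 (-0.14) did not pass with the trends removed (adjusted p = 0.196 to 0.358). Ptch1 (-0.66) passed at another size with litter as a block. Stra6 (0.41 to 0.55 without each of 5 litters in turn), Ptch1 (-0.34 without D28M23 and -0.32 without D28M53) and Gas1 (-0.31 to -0.23 without each of 5 litters in turn) did not pass when such a litter was left out.

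In the BMP pathway 3 of 11 tested genes fell, and all are feedback or target genes: Id1, at 389.8 to 1124 (median 598) at 5–6 somite pairs and 303 to 538 (median 471) at 7–9 (-0.50 ± 0.11, adjusted p = 0.00131), and the inhibitory Smads Smad6 (-0.50 ± 0.14, adjusted p = 0.00758) and Smad7 (-0.49 ± 0.15, adjusted p = 0.0134). The other 8 tested members did not pass, and the ligand Bmp4, counted above with lateral mesoderm, rose. In the FGF pathway 3 of 10 fell, the receptors Fgfr1 (-0.50 ± 0.10, adjusted p = 0.000469) and Fgfr2 (-0.41 ± 0.15, adjusted p = 0.0431) and the feedback inhibitor Spry4 (-1.13 ± 0.25, adjusted p = 0.000986), while Dusp6 (0.031) and Etv4 (-0.17) did not pass. Of 6 tested Wnt ligands Wnt3a (-0.65 ± 0.16, adjusted p = 0.00317) and Wnt5a (-0.50 ± 0.13, adjusted p = 0.00347) fell and Wnt2 rose (0.44 ± 0.15, adjusted p = 0.0243). Notum, which inactivates Wnt ligands and is itself a Wnt target, was at 10.9 to 64.3 (median 23.9) at 5–6 somite pairs and 0 to 20.1 (median 12.1) at 7–9 (-1.30 ± 0.27, adjusted p = 0.0005). Wnt ligands numbered 1 raised and 1 lowered with the trends removed and 0 and 1 with litter as a block. Smad7 (-0.59) and Wnt2 (0.64) did not pass with litter as a block (adjusted p = 0.0529 to 0.074). Smad7 (-0.25), Fgfr2 (-0.39) and Wnt5a (-0.27) did not pass with the trends removed (adjusted p = 0.0506 to 0.169). Notum (-1.97) passed at another size with litter as a block. Smad7 (-0.54 to -0.35 without each of 3 litters in turn), Fgfr2 (-0.48 to -0.32 without each of 8 litters in turn) and Wnt2 (0.41 without D24M15 and 0.41 without D28M31) did not pass when such a litter was left out.

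Glycolysis turns glucose into pyruvate and lactate. Of 18 tested glycolysis and lactate genes 8 rose and 1 fell, with a median of 0.23. Pfkl, liver-type phosphofructokinase, was at 130.1 to 375 (median 260.3) at 5–6 somite pairs and 269.6 to 582 (median 368) at 7–9 (0.62 ± 0.12, adjusted p = 0.000297), and Tpi1 (0.35 ± 0.077, adjusted p = 0.000874) and Gpi1 (0.53 ± 0.12, adjusted p = 0.00158) rose. Slc16a1, a lactate and pyruvate transporter, was at 435 to 914 (median 681) at 5–6 somite pairs and 312 to 668 (median 416) at 7–9 and fell (-0.61 ± 0.10, adjusted p = 5.79e-05). With the trends removed 4 rose and 2 fell, with a median of 0.14. With litter as a block 5 rose and 0 fell (median 0.35), and with both together 2 rose and 0 fell (median 0.12). Of 11 tested hypoxia genes 1 rose and 1 fell. Adm, adrenomedullin, a vascular peptide induced by low oxygen, was at 1.23 to 29.3 (median 11) at 5–6 somite pairs and 6.81 to 70.2 (median 29.4) at 7–9 (1.51 ± 0.30, adjusted p = 0.000394), while Vegfa (-0.27) and Bnip3 (-0.073) did not pass and Kdm3a fell (-0.44 ± 0.17, adjusted p = 0.0476). A list of glucose and fatty acid transporters came from the study, so its direction is not independent evidence. Of 11 tested, Slc2a10 (1.06 ± 0.21, adjusted p = 0.000271) and Cpt2 (0.31 ± 0.10, adjusted p = 0.0242) rose and Slc2a3, a glucose transporter, was at 1349 to 3110.4 (median 2491) at 5–6 somite pairs and 1507 to 2621 (median 1794) at 7–9 and fell (-0.33 ± 0.091, adjusted p = 0.00599). Slc2a1 was at -0.19 (adjusted p = 0.124). The glucose-responsive Txnip was at 29.9 to 221 (median 77.2) at 5–6 somite pairs and 5.81 to 155 (median 84.7) at 7–9 (-0.23 ± 0.32, adjusted p = 0.615), and Arrdc4 (0.22, adjusted p = 0.3) did not pass either. Hypoxia genes numbered 2 raised and 0 lowered with the trends removed. Transporters numbered 1 raised and 3 lowered with the trends removed and 1 and 0 with litter as a block. Slc16a1 (-0.34), Slc2a10 (0.86) and Slc2a3 (-0.24) did not pass with litter as a block (adjusted p = 0.0668 to 0.147). Kdm3a (-0.33) and Cpt2 (0.17) did not pass with the trends removed (adjusted p = 0.139 to 0.169). Kdm3a (-0.71) and Cpt2 (0.47) passed at another size with litter as a block. Tpi1 (0.23) and Gpi1 (0.28) passed at another size with the trends removed. Kdm3a (-0.45 to -0.39 without each of 9 litters in turn) and Cpt2 (0.21 to 0.34 without each of 3 litters in turn) did not pass when such a litter was left out.

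Of 17 tested genes of sterol synthesis 9 rose and none fell, with a median of 0.32. Fdps, farnesyl diphosphate synthase, was at 34.4 to 112 (median 58.2) at 5–6 somite pairs and 76.7 to 181 (median 93.6) at 7–9 (0.72 ± 0.15, adjusted p = 0.000411), and Fdft1 (0.65 ± 0.17, adjusted p = 0.0044) and Dhcr7 (0.48 ± 0.14, adjusted p = 0.00713) rose. With litter as a block 3 rose. Of 88 nuclear genes of the respiratory chain 32 rose and 1 fell (median 0.21), and of 79 cytosolic ribosomal protein genes 24 rose and none fell (median 0.20). Ndufs7, a complex I subunit, was at 88.4 to 186 (median 119) at 5–6 somite pairs and 138 to 293 (median 198) at 7–9 (0.73 ± 0.11, adjusted p = 9.44e-06), and Rps19 at 408 to 856 (median 583) at 5–6 somite pairs and 688 to 1270.4 (median 797) at 7–9 (0.60 ± 0.093, adjusted p = 1.68e-05). These are short transcripts, and with the GC and length trends removed the counts were 20 up and 4 down with a median of 0.12 for the respiratory chain, and 16 up and 3 down with a median of 0.081 for the ribosome. Of 7 tested genes of the mitochondrial genome 3 rose, among them mt-Nd2 (0.55 ± 0.12, adjusted p = 0.000898), and none did with litter as a block. The share of all counts from it was 2.78% to 6.21% (median 5.07%) at 5–6 and 3.27% to 5.45% (median 4.11%) at 7–9 somite pairs. mt-Nd2 (0.50) did not pass with litter as a block (adjusted p = 0.0532). Ndufs7 (0.38) passed at another size with the trends removed.

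Hspe1, a mitochondrial chaperonin partner, was at 329 to 758 (median 469.6) at 5–6 somite pairs and 587 to 1049 (median 769) at 7–9 and rose (0.62 ± 0.10, adjusted p = 3.47e-05), and of 8 tested heat shock genes 4 rose and 0 fell. Of the integrated stress response Asns (0.38 ± 0.10, adjusted p = 0.00503) and Atf4 (0.38 ± 0.13, adjusted p = 0.0259) rose and 7 others did not pass. Of 12 tested p53 targets Pmaip1, the death factor Noxa, was at 33.4 to 103 (median 55.8) at 5–6 somite pairs and 19.5 to 39.3 (median 31.7) at 7–9 (-0.88 ± 0.15, adjusted p = 4.81e-05) and Trp53inp1 fell (-0.50 ± 0.17, adjusted p = 0.0246), while Cdkn1a (-0.20) and Mdm2 (0.046) did not pass. Over all genes tested 14% fell. Of 9 immediate early genes Ier2 rose (0.47 ± 0.15, adjusted p = 0.015) and Nr4a1 (-0.81 ± 0.28, adjusted p = 0.025) and Dusp1 (-0.46 ± 0.17, adjusted p = 0.0354) fell. Heat shock genes numbered 1 raised and 0 lowered with the trends removed and 2 and 0 with litter as a block. Integrated stress genes numbered 1 raised and 1 lowered with litter as a block. Targets of p53 numbered 0 raised and 4 lowered with the trends removed and 0 and 1 with litter as a block. Immediate early genes numbered 0 raised and 2 lowered with the trends removed and 0 and 1 with litter as a block. Atf4 (0.46), Trp53inp1 (-0.53), Ier2 (0.42) and Dusp1 (-0.44) did not pass with litter as a block (adjusted p = 0.111 to 0.173). Atf4 (0.19), Trp53inp1 (-0.30), Ier2 (0.22) and Dusp1 (-0.39) did not pass with the trends removed (adjusted p = 0.0702 to 0.277). Atf4 (0.31 to 0.39 without each of 3 litters in turn), Trp53inp1 (-0.42 without D28M23 and -0.46 without D28M31), Ier2 (0.38 to 0.43 without each of 3 litters in turn), Nr4a1 (-0.57 without D24M15 and -0.75 without D28M02) and Dusp1 (-0.46 to -0.34 without each of 5 litters in turn) did not pass when such a litter was left out.

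Of 26 tested genes of DNA replication and mitosis 5 fell and 2 rose, with a median of -0.071. Ccnd1, cyclin D1, was at 709 to 1557 (median 1075) at 5–6 somite pairs and 428 to 1052 (median 781) at 7–9 (-0.42 ± 0.11, adjusted p = 0.00404), Kif11, a spindle motor, fell (-0.41 ± 0.092, adjusted p = 0.00125), and Mki67 was at -0.063 (adjusted p = 0.752). In the extracellular matrix 4 of 20 rose and 2 fell. Fn1, fibronectin, was at 1500.0 to 3347 (median 2443) at 5–6 somite pairs and 1075 to 2342 (median 1714) at 7–9 (-0.42 ± 0.11, adjusted p = 0.0036), and Col3a1 (0.91 ± 0.24, adjusted p = 0.00476) and Col2a1 (0.54 ± 0.17, adjusted p = 0.0146) rose. Of 19 imprinted genes 5 rose and 5 fell. Ndn, a maternally silenced regulator of neuronal growth, was at 88 to 177 (median 117) at 5–6 somite pairs and 169 to 227 (median 193) at 7–9 (0.67 ± 0.086, adjusted p = 1.45e-06), with 14 of 16 later libraries above every earlier one. Phlda2, a paternally silenced growth inhibitor, was at 499 to 1709.7 (median 802) at 5–6 somite pairs and 95.7 to 788 (median 415) at 7–9 (-1.06 ± 0.18, adjusted p = 7.36e-05), with 11 below every earlier one. Both passed with litter as a block (0.73 and -1.15). Replication and mitosis genes numbered 1 raised and 4 lowered with litter as a block. Matrix genes numbered 8 raised and 1 lowered with the trends removed and 1 and 1 with litter as a block. Imprinted genes numbered 3 raised and 2 lowered with the trends removed and 2 and 2 with litter as a block. Kif11 (-0.41), Col3a1 (0.81) and Col2a1 (0.31) did not pass with litter as a block (adjusted p = 0.0546 to 0.458). Fn1 (-0.36 without D24M15) and Col2a1 (0.47 without D24M15 and 0.51 without D28M53) did not pass when such a litter was left out.

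Among the 15 largest rises by the same rule were 7 short structured RNAs or histone genes, whose transcripts lack a usual poly(A) tail. Scarna9, a guide RNA of Cajal bodies, was at 7.04 to 144 (median 28.4) at 5–6 somite pairs and 20.4 to 575 (median 135) at 7–9 (2.23 ± 0.37, adjusted p = 4.5e-05), and Rnu11, of the minor spliceosome, at 0.994 to 782 (median 41.9) at 5–6 somite pairs and 14.6 to 1205 (median 303) at 7–9 (1.93 ± 0.54, adjusted p = 0.00675). Of 57 tested short structured RNAs 20 rose and 2 fell, and of 31 replication histone genes 14 rose (median 0.71). With litter as a block 1 short RNA and 1 histone gene rose, with medians of 0.0072 and 0.23. With the trends removed 12 short RNAs rose and 6 fell (median 0.24), and 9 histone genes rose and 2 fell (median 0.43). With the block and the trends removed together 1 short RNA and 0 histone genes rose, with medians of -0.074 and -0.15. The share of all counts from short structured RNAs was 0.0597% to 0.347% (median 0.121%) at 5–6 and 0.0642% to 0.427% (median 0.204%) at 7–9 somite pairs. Among the 15 largest falls by that rule were 7 loci that GENCODE lists only as to be experimentally tested (TEC), led by Gm44144 at 3.68 to 139 (median 28.4) at 5–6 somite pairs and 3.04 to 14.6 (median 8.23) at 7–9 (-2.10 ± 0.36, adjusted p = 5.19e-05). Of 131 tested TEC loci 42 fell and none rose (median -0.42), and with litter as a block 1 rose and 10 fell. In normal embryos 16 of 146 rose and none fell (median 0.25), and the interaction passed for 46 of 193, all more negative in diabetic embryos, and for 30 with the trends removed. Coding genes among them not yet named were Fabp7, a brain fatty acid binding protein, at 5.37 to 94.2 (median 19.4) at 5–6 somite pairs and 0 to 24.9 (median 7.56) at 7–9 (-1.50 ± 0.34, adjusted p = 0.00108), and Gabrg1, a GABA receptor subunit (-1.40 ± 0.27, adjusted p = 0.000283). Rnu11 (0.39) did not pass with litter as a block (adjusted p = 0.392). Scarna9 (1.29) passed at another size with litter as a block.

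Markers of other cells that a dissection could carry were checked. Summed visceral endoderm markers were 175 to 1883 normalized counts (median 536) at 5–6 and 151 to 3622 (median 582) at 7–9 somite pairs, so the stages overlapped, and none of 9 tested members passed, 6 being positive with a median of 0.22. With litter as a block 9 were positive with a median of 1.06, and with the trends removed as well 8 with 0.75, and none passed with the block. The highest was D24M15G. Of 2 tested trophoblast genes Plac1 fell (-0.87 ± 0.25, adjusted p = 0.00779), and the summed list was 54 to 129.7 and 43.6 to 132. Decidual and leukocyte markers summed to 0 to 5.99 (median 1.38) at 5–6 and 7.38 to 84.2 (median 20.6) at 7–9 somite pairs, with no overlap. In normal embryos the medians were 0.808 and 16.3. Most of the later sum was Cd74, the invariant chain of class II antigen presentation, at 0 to 1.11 (median 0) at 5–6 somite pairs and 7.38 to 81.3 (median 18) at 7–9 in diabetic and 0 to 1.53 (median 0) at 5–6 somite pairs and 0 to 26.2 (median 15.5) at 7–9 in normal embryos. Cd74 was below the count filter, and without a filter its log2 fold change in diabetic embryos was 6.79 (adjusted p = 1.5e-13). The other members had medians of under 1 normalized count at either stage, and the part of such cells in other results was not tested. Of 3 parietal endoderm genes Plat (-0.68) and Fst (-0.47) fell. Fst (-0.40) did not pass with the trends removed (adjusted p = 0.0523). Plac1 (-1.48), Plat (-1.06) and Fst (-0.89) passed at another size with litter as a block. Plac1 (-0.72 without D24M15) and Fst (-0.49 to -0.39 without each of 6 litters in turn) did not pass when such a litter was left out.

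Whether the stage change differed from that of normal embryos was tested as the interaction of maternal condition and stage over all 66 embryo libraries. In normal embryos 1615 of 10696 genes passed (15.1%), 656 raised and 959 lowered. Of genes called in diabetic embryos 596 were called in normal ones as well, 19.1% of the former and 36.9% of the latter, and 566 of them had the same direction. The groups share no dam and no library. Somite numbers inside the stages differed too, with means of 5.24 and 7.94 pairs in diabetic and 5.35 and 7.88 in normal embryos. The part of this difference in the contrast of conditions was not tested. The interaction passed for 984 of 11304 genes (8.7%), 492 with a more positive and 492 with a more negative stage change under diabetic conditions. This count depended on the samples: it was 532 with the trends removed, 370, 377, 453 and 1480 without litters D28M23, D28M53, D28M31 and D28M37, and 1 with counts summed per litter and stage, Gm10800.

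Kitl, the ligand of the receptor Kit, was at 155 to 298 (median 200.1) at 5–6 somite pairs and 60.8 to 158 (median 128) at 7–9 in diabetic embryos (-0.85 ± 0.11, adjusted p = 1.89e-06), with 15 of 16 later libraries below every earlier one. In normal embryos it was at 95.2 to 227 (median 161) at 5–6 somite pairs and 96.6 to 204 (median 152) at 7–9 (-0.091 ± 0.11, adjusted p = 0.59). The interaction was -0.76 ± 0.15, adjusted p = 0.0051, and it passed with the trends removed (-0.47, adjusted p = 0.0334). Kit itself fell in diabetic (-0.44) and rose in normal embryos (0.34), with an interaction of -0.79 ± 0.19, adjusted p = 0.00965. Csnk2a2, a casein kinase subunit, fell under diabetic (-0.43) and rose under normal conditions (0.48), with an interaction of -0.92 ± 0.18, adjusted p = 0.0051. Trpm7, an ion channel kinase, was at -0.84 under diabetic and 0.056 under normal conditions (interaction adjusted p = 0.0051). Csrp1, a LIM domain protein, was at 0.84 and -0.10 (interaction adjusted p = 0.0051). The interaction of Kit passed with the trends removed (-0.57, adjusted p = 0.0313). Its stage change in diabetic embryos (-0.25) did not pass with the trends removed (adjusted p = 0.165). That of Trpm7 in diabetic embryos (-0.55) passed at another size with the trends removed. The stage change of Kit in diabetic embryos (-0.42 to -0.36 without each of 3 litters in turn) did not pass when such a litter was left out.

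Of the lists, the heart muscle genes had a median of 0.84 under diabetic and 0.42 under normal conditions, where 8 of 25 rose. For Myl7 the normal change was 0.42 ± 0.15, adjusted p = 0.0462 and the interaction 0.91 ± 0.25, adjusted p = 0.0204, which did not pass with the trends removed (0.63, adjusted p = 0.0757). The interaction passed for 3 of 25 heart muscle genes, beside 8.7% of all genes, each more positive in diabetic embryos, and for 1 with the trends removed. For the 3 globins, normal embryos had 3.33, 3.86 and 2.51, and no interaction passed (adjusted p = 0.179, 0.435 and 0.228 for Hba-x, Hbb-y and Hbb-bh1). Spry4 was at -1.13 in diabetic and 0.27 in normal embryos (interaction adjusted p = 0.0119), Ccnd1 at -0.42 and 0.27 (0.00594) and Hoxb3 at -0.57 and 0.41 (0.00841), and these 3 interactions passed with the trends removed as well (adjusted p = 0.0228, 0.00838 and 0.0218).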

How the data were processed

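RNA of 33 whole embryos of diabetic NOD dams was sequenced by QuantSeq 3′ FWD, which reads the 3′ end of polyadenylated transcripts. The authors aligned reads with STAR to the mouse genome (mm10 in the submitters' processing notes, which is GRCm38), collapsed reads that shared a molecular identifier and used HTSeq to assign them to genes, and the deposited values are these counts for 47643 genes, with no normalization. Program versions are not given in the sources used here. Symbols missing from the deposit, biotypes and transcript sequences were taken from GENCODE M21 (GRCm38), and promoter windows from RefSeq (GRCm38.p6).

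Genes were tested with edgeR 4.0.16 (TMM, filterByExpr with a minimum count of 10, glmQLFit, glmQLFTest) under R 4.3.3, with stage as the only term, and the standard error is the log2 fold change divided by the root of F. Normalized counts are counts divided by DESeq2 1.42.0 size factors over 66 embryo libraries. Batch-control duplicates (4 in the series) were left out. The stage fits in edgeR, DESeq2 and limma voom and the fit with trends removed were tested on simulated counts that held no litter effect. The interaction fit and the fits with litter as a fixed block were not tested in this way. Each embryo is 1 library, littermates share a dam, and p-values treat embryos as independent except where litter is a term. Littermates come from the same dam by the labels, which is the source of the pairing.

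The p-values weigh a difference against the spread among embryos within groups. Except in fits with litter as a term or sums per litter, they do not reflect the spread between dams. Named genes are the 15 raised and 15 lowered genes with the largest change among those called, with a symbol, a mean of 20 normalized counts in a stage and the same direction with litter as a block, up to 4 genes per list by lowest p (not called: highest mean), and 10 genes by interaction p. Further members of the lists were named after their values were seen to complete a group. Some genes that these rules name are not reported here. The members, lists and tests were chosen with earlier results of these data known. Alternatives were DESeq2, RLE size factors, other count filters, sex, title number or litter (fixed, or random with limma 3.58.1 voom) as terms, sums per litter, thinning, a duplicate in place of its original, other stage definitions, all 4 embryo groups in a single fit and leaving out each litter. Removal of lowess trends (span 0.3) on GC content of the last 500 bases and on length, and leaving out libraries D24M15J, D28M36B, D28M36C with D28M23B, D28M23D and D28M31L, or D28M36D with D28M23B and D24M15G, were chosen after the data had been seen. Permutation used 100000 resamples.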

Additional observations from a re-analysis of the deposited data

Results flagged for a closer look

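The stage change differed between embryos of diabetic and normal dams, by the interaction term in edgeR's quasi-likelihood test, for 984 genes, 44 of them named here. For each of these 44, the value is the log2 stage change in diabetic minus that in normal embryos. It was positive for Hist1h4d (1.53), Scarna9 (1.48), Adm (1.13), Csrp1 (0.93), Myl7 (0.91), Actc1 (0.81), Ifitm3 (0.70), Crabp1 (0.59) and Rpl8 (0.57), and also for Pfkl (0.55), Rps19 (0.54), Esam (0.54), Nans (0.53), Akr1a1 (0.51), Ndufs7 (0.49), Dnajb1 (0.49), Gpi1 (0.48), Rplp0 (0.45), Ramp2 (0.43), Rtcb (0.41) and Cox6a1 (0.37). It was negative for Gm10800 (-2.84), Gm44144 (-2.03), Gm43274 (-1.82), 5430420F09Rik (-1.77), Gm37524 (-1.69), Gm37018 (-1.68), Gm44044 (-1.53), Gm26901 (-1.46), Gm42986 (-1.45), Spry4 (-1.40), Hoxb3 (-0.99) and Ednra (-0.96), and also for Csnk2a2 (-0.92), Trpm7 (-0.90), Twist1 (-0.86), Kit (-0.79), Kitl (-0.76), Pdgfra (-0.73), Ccnd1 (-0.69), Cyp26a1 (-0.68), Wnt5a (-0.65), Lrp2 (-0.52) and Kif11 (-0.46). With GC content and length trends removed, all 44 kept their sign and 27 passed the test. These refits use the libraries by which the genes were chosen, so kept signs are not independent evidence. With litter as a random block 38 passed, and with counts summed per litter and stage 1, which was Gm10800. In 26 of them the stage change had opposite signs under both conditions.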

How the results depend on the processing

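The 3124 genes called in diabetic embryos stayed within 1.5 times that number in all alternatives but 3: 1719 with litter as a fixed block, which uses the pairing of littermates and shares 1369 genes, 1101 with counts summed per litter and stage (15 sums, so fewer samples), and 1023 with the block and the GC and length trends removed together. The block alone turned the sign of 15 of the 3124, and both together that of 209. Leaving out each litter gave 2251 to 3455, DESeq2 gave 3648, and leaving out the 4 libraries that led the main axis of variation (D28M36C, D28M23B, D28M23D and D28M31L) gave 2621. The 984 interaction calls moved more, and the cause was not tested: 1839 with the litter block, 2129 with the title number as a factor, 532 with the trends removed, 410 without those 4 libraries, 438 without a filter on low counts (29711 genes tested) and 1 with sums, where 2078 of 12676 had an unadjusted p under 0.05. Leaving out each diabetic litter gave 370 (D28M23) to 1480 (D28M37), with 377 without D28M53 and 453 without D28M31. Of 6101 values for 219 named genes, 5444 kept direction and call, 598 lost the call, 56 gained it and 3 turned sign, all with the block and the trends removed together: Epha4 (0.10), Nkd1 (-0.028), Tcf15 (-0.013). Littermates had an estimated correlation (limma) of 0.207. Small changes of genes with few counts were not detectable at this depth.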
